A study of Mus musculus with 20 samples.

Results

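Fatty acid oxidation and ketogenesis were followed through 38 genes in mouse liver. The genes were chosen by name for their place in the pathway, with earlier results of these data known. They cover the receptor Ppara, uptake and activation of fatty acids, the carnitine shuttle, beta-oxidation in mitochondria and peroxisomes, electron transfer, ketone bodies, acyl-CoA thioesterases and 3 other known Ppara targets. All 38 were found among the 45306 genes of the expression table, and all 38 passed the filter on low counts that left 15616 genes to test. Liver messenger RNA of 20 C57BL/6 mice was sequenced, 1 library per mouse and 5 mice per group. The Control group was wild type without cold exposure, and the CE group was wild type with cold exposure at 4 °C for 3 h a day over 3 weeks. The Sirt2-/- group carried a CRISPR deletion of Sirt2 made in the whole animal and no cold exposure, and the Sirt2-/-/CE group carried the deletion and received the same cold. Mice were 5 weeks old at the start. The deletion is not limited to hepatocytes, so a difference in liver RNA cannot be assigned to loss of Sirt2 in the liver itself.

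Fatty acids that enter the hepatocyte are bound by Fabp1 and activated to acyl-CoA. Long chains cross into mitochondria as carnitine esters, with Cpt1a on the outer membrane as the gate, and are then shortened in repeated cycles of dehydrogenation, hydration, oxidation and thiolysis. Peroxisomes shorten very long chains and dicarboxylic acids, and the liver turns surplus acetyl-CoA into ketone bodies for other tissues. Ppara is the fatty acid-sensing nuclear receptor that drives most of these genes in fasting, and it binds with its partner Rxra to paired AGGTCA half-sites.

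Libraries held 35499796 to 53917339 counts, and each Control library (44222098 or more) was deeper than each Sirt2-/- library (42142304 or fewer). Sirt2 itself was at 20.1 FPKM or above in every wild-type mouse and at 15.3 FPKM or below in every mouse labelled Sirt2-/- or Sirt2-/-/CE (FPKM, fragments scaled to gene length and to the reads of the library). Its mean in Sirt2-/- was 56.8% of Control and its mean in Sirt2-/-/CE was 48.7% of CE, with adjusted p = 0.0145 and 0.0043 in edgeR's quasi-likelihood test. The study reported by immunoblot that knockout livers lacked the Sirt2 protein, which these RNA levels do not measure. The 8 hepatocyte markers summed to 42438 to 83340.1 FPKM in each mouse, and of the 6 adipocyte markers Adipoq, Plin1, Lep, Cidea and Ucp1 were at or near 0 in all groups. The sixth, Pparg, had group means of 2.58 to 6.34 FPKM and was lower than in Control by fitted log2 values of -1.24 for CE (adjusted p = 0.157) and -0.80 for Sirt2-/- (adjusted p = 0.172), each with an unadjusted p under 0.05. In bulk tissue, fewer cells of a type and less RNA per cell cannot be told apart. A clock score (Dbp, Tef, Per3, Ciart and Nr1d2 minus Arntl, Npas2 and Clock, in centred log2 CPM, counts scaled to library size) ran from 1.33 to 3.36 in Control, from -4.52 to 2.42 in CE, from -6.48 to 2.17 in Sirt2-/- and from -4.69 to 0.86 in Sirt2-/-/CE. Mice CE 9, Sirt2-/- 14, Sirt2-/- 15 and Sirt2-/-/CE 19 lay under -4 and stood apart from the other 16. Without these 4 mice, and with the score as a covariate, no gene of the whole table passed in Sirt2-/- against Control by edgeR, Sirt2 included (lowest adjusted p = 0.215 and 0.16, with 1266 and 1135 genes at an unadjusted p under 0.05). With any single mouse of the 2 groups left out, 5 to 375 genes passed in that comparison.

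The pathway was abundant in every group. The median of the 38 mean levels was 84.9 FPKM, against 2.84 FPKM for all tested genes. Fabp1, the fatty acid-binding protein of liver cytosol, was highest at 3456 FPKM, and Acot2, a mitochondrial thioesterase, lowest at 2.29 FPKM. On the FPKM scale the CE group had the lowest mean of the 4 groups for 32 of 38 genes, and the highest for 0. On the scale of TMM-normalised log2 CPM, used for all fold changes below, CE was lowest for 24 genes and Sirt2-/- for 10. The 2 scales differ both in library scaling and in averaging linear or log values. Control 4 and CE 7 lay below the mean of the 20 mice for all 38 genes. The highest mean on the log2 CPM scale was in Sirt2-/-/CE for 15 genes, in Sirt2-/- for 14 and in Control for 9.

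**Figure D1:**
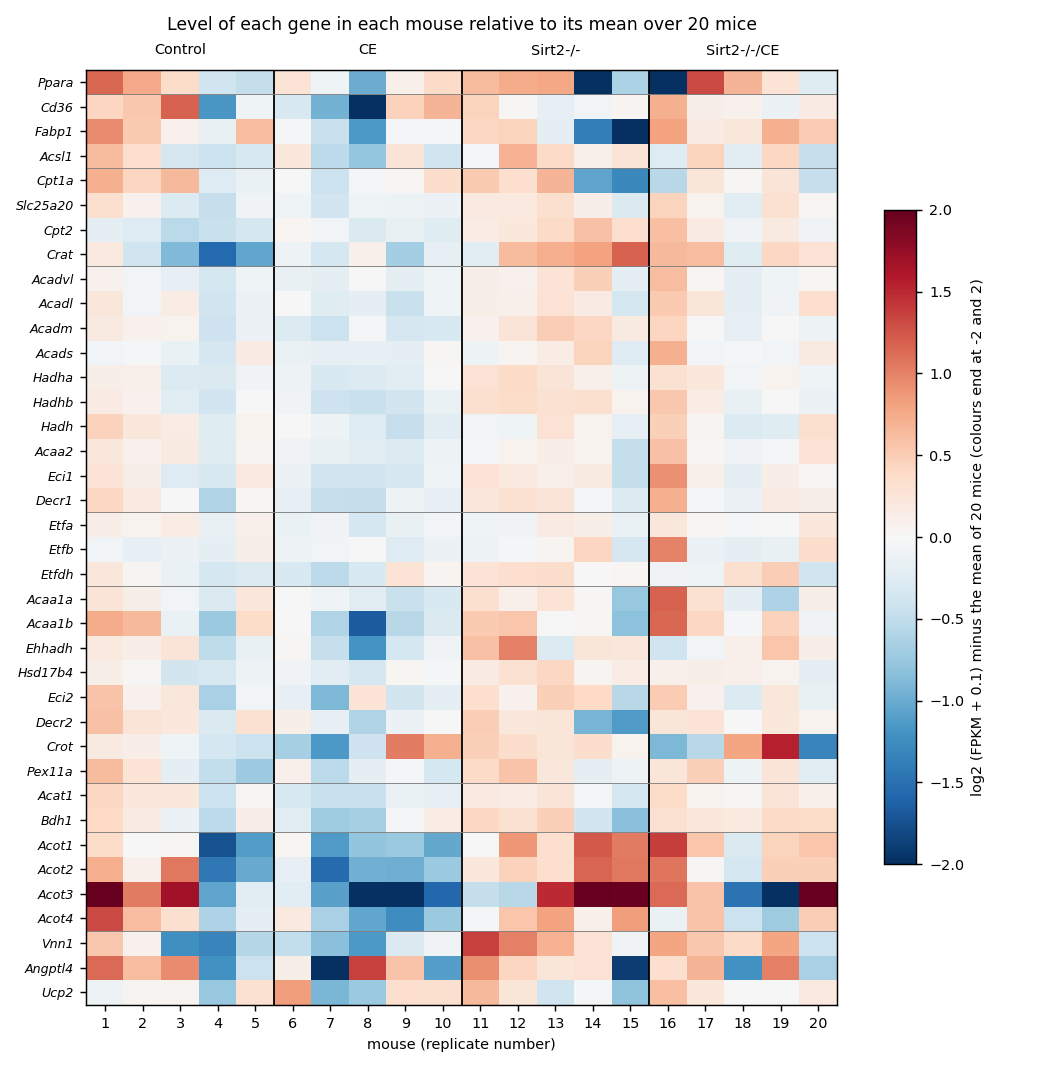
Each row is 1 of the 38 genes, grouped by role from Ppara at the top to Ucp2 at the bottom, and each column is 1 mouse, numbered 1 to 20 and grouped as Control, CE, Sirt2-/- and Sirt2-/-/CE. Colour gives log2 of FPKM plus 0.1 minus the mean of the 20 mice. Each CE column is blue for 25 to 38 of the genes, and so are Control mouse 4 for 38 and Sirt2-/-/CE mouse 18 for 26. Mice 13 and 16 are red for all 10 mitochondrial genes, and mice 14 and 15 are blue for Fabp1, Cpt1a and Decr2.

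No gene of the 38 passed adjusted p under 0.05 in any of the comparisons by edgeR's quasi-likelihood test, with p-values adjusted over the 15616 genes by the Benjamini-Hochberg method. The comparisons ask what cold does in each genotype, what loss of Sirt2 does with and without cold, and whether one changes the other. Few genes of any kind passed: 0.0064% for CE against Control, 0.89% for Sirt2-/- against Control, 0.0% for Sirt2-/-/CE against Sirt2-/- and 0.0128% for Sirt2-/-/CE against CE. For the interaction of genotype and cold it was 0.0%, for genotype averaged over both treatments 0.186%, and for cold averaged over both genotypes 0.0%. The lowest adjusted p among the 38 genes was 0.253 in CE against Control, 0.0603 in Sirt2-/- against Control, 0.667 in Sirt2-/-/CE against Sirt2-/-, 0.458 in Sirt2-/-/CE against CE and 0.45 for the interaction. DESeq2 on the same counts called 2 genes of the 38 in Sirt2-/- against Control (all genes, 3.84%) and 4 for the genotype average (all genes, 1.94%). Limma voom was run with sample quality weights, so the mice did not count equally. It called 2 in CE against Control, 1 in Sirt2-/- against Control and 1 for the genotype average, where it called 3.46%, 5.8% and 1.68% of all genes. For the genotype average, scaling by library size called 3 of the 38 (all genes, 0.717%) and limma on log2 FPKM called 2 (all genes, 0.288%). DESeq2 and limma voom called 0 in the other comparisons.

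With cold in wild-type mice, the fitted log2 fold change was below 0 for 31 of the 38 genes, and its median was -0.21. Among all tested genes 51.0% were below 0. An unadjusted p under 0.05 was reached by 5 of the 38, each lower in CE, where the share of all genes was 10.7%. These 5 were Acot2, Acot3, Acot4, Acat1 and Acaa1b. The count was 3 without Control 1 (all genes, 1248 of 15817) or Control 3 (1119 of 15812), and 8 without Control 4 (2106 of 15853). With the 3 weeks of cold in Sirt2-/- mice, 23 of 38 were above 0, the median was 0.06, and 1 gene had a p under 0.05 (all genes, 7.25%). Leaving out 1 mouse moved that median from -0.01 without Sirt2-/-/CE 16 (17 above 0) to 0.17 without Sirt2-/- 13 or Sirt2-/-/CE 18, and 19 genes were above 0 without Sirt2-/- 15. Both counts depended on the fit. In CE against Control 21 genes were below 0 with the clock score as a covariate, with a median of -0.05. Limma voom gave 34 below 0 there, with a median of -0.34 and 13 at a p under 0.05 (all genes, 3248 of 15616). With limma voom 29 were below 0 in Sirt2-/-/CE against Sirt2-/-, with a median of -0.10. The interaction was above 0 for 32 of 38 genes with a median of 0.31, and 5 had a p under 0.05 (all genes, 8.34%). Single mice carried part of this, since the median was 0.16 without Sirt2-/-/CE 16 (28 above 0), 0.17 without Sirt2-/- 15 (26 above 0) and 0.19 without Control 1 (30 above 0). Without the 4 mice of low clock score 20 genes were above 0, with a median of 0.10.

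Loss of Sirt2 without cold gave no common direction. Of the 38 genes 17 were above 0 and 21 below, the median was -0.04, and 5 had an unadjusted p under 0.05 (all genes, 14.9%), namely Cpt2, Crat, Vnn1 and Acot1, higher in Sirt2-/-, and Fabp1, lower. Leaving out 1 mouse moved this split, with 24 above 0 and a median of 0.09 without Sirt2-/- 15. Without Control 4 it was 14 above 0 and -0.13. Without Control 5 the count at a p under 0.05 was 3 (all genes, 2233 of 15835). When mice 14 and 15 were left out, together with CE 9 and Sirt2-/-/CE 19, 27 genes were above 0 and the median was 0.12. Scaling by library size alone gave 26 above 0, with the median of all genes at 0.158 in place of 0.0168. With the cold in both genotypes, Sirt2-/-/CE against CE had 36 of 38 genes above 0, a median of 0.27 and 9 genes with a p under 0.05, all higher (all genes, 6.09%). Among all tested genes 47.4% were below 0 in that comparison. The count of 9 was 18 with scaling by library size, 16 with limma on log2 FPKM, 12 with the clock score as a covariate and 6 with limma voom. Among all 15616 genes the counts were 1235, 1203, 999 and 1245 in that order. The median of all genes was 0.109 with scaling by library size and 0.0478 with limma on log2 FPKM, in place of 0.0165. Mouse 16 of Sirt2-/-/CE carried part of the difference of the 38 genes from CE. Without that mouse 33 of the 38 were above 0, the median was 0.14 and 4 had a p under 0.05 (all genes, 876 of 15855). The 5 endothelial markers were also above 0 in this comparison, with a median of 1.29. Without the 4 mice of low clock score 35 of the 38 genes were above 0, the median was 0.24 and 8 had a p under 0.05 (all genes, 1250 of 15982).

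**Figure D2:**
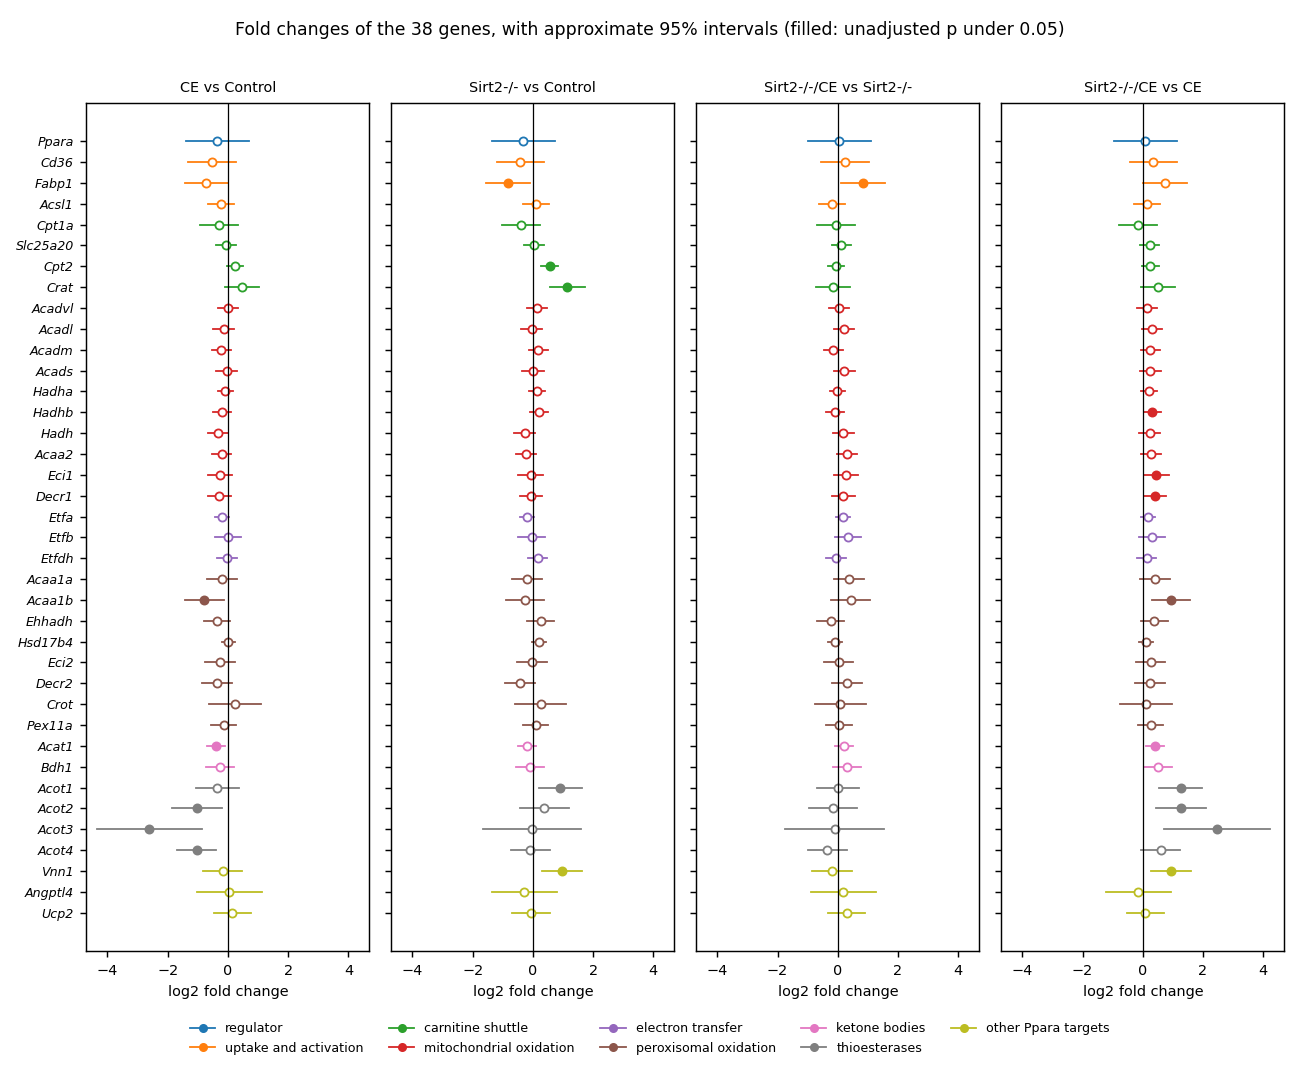
Each row is 1 of the 38 genes, coloured by role, and each panel is 1 comparison. Points are log2 fold changes from edgeR, lines approximate 95% intervals, and filled points mark an unadjusted p under 0.05. Nearly all points of the Sirt2-/-/CE against CE panel lie right of 0, and the thioesterases lie left of 0 in CE against Control.

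Groups that did not overlap were rare too. On the normalised CPM scale, Cpt2 alone of the 38 separated CE from Control (all genes, 3.04%) and Sirt2-/- from Control (all genes, 3.61%). It was higher in CE, with a log2 fold change of 0.24 ± 0.14 (SE) that did not pass edgeR's quasi-likelihood test (adjusted p = 0.597). For Sirt2-/-/CE against Sirt2-/- the count was 0 (all genes, 0.743%), and for Sirt2-/-/CE against CE it was 2, Acat1 and Fabp1 (all genes, 1.22%). Averaged over both treatments, genotype gave 30 genes above 0 with a median of 0.14 and 6 with a p under 0.05 (all genes, 13.8%), and the median was 0.06 without Sirt2-/-/CE 16 (27 above 0) and 0.05 with limma voom (26 above 0). It was 0.25 with the covariate (10 genes at a p under 0.05), 0.25 with scaling by library size (17 genes, with the median of all genes at 0.139) and 0.24 with limma on log2 FPKM (15 genes). Among all 15616 genes, 1227, 3184 and 3002 had a p under 0.05 in these fits, in that order. Of the 7 Kupffer cell markers 7 were above 0 for the genotype average, with a median of 0.58 and 5 at a p under 0.05. Averaged over both genotypes, cold gave 15 above 0 with a median of -0.05 and 2 with a p under 0.05 (all genes, 9.48%). That split was not stable, with 5 above 0 and a median of -0.09 without Sirt2-/-/CE 16, 7 above 0 and -0.10 without Sirt2-/- 15, and 5 above 0 and -0.20 with limma voom.

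Ppara varied more between mice of a group than between groups. In the 5 Control mice it was at 49.3, 37.6, 28.9, 16.8 and 16 FPKM, and in CE at 27.1, 21.0, 11.1, 23.9 and 29.1 FPKM. In Sirt2-/- it was at 34.6, 37.2, 38.2, 3.6 and 14.3 FPKM, and in Sirt2-/-/CE at 5.47, 55.8, 35.6, 26.9 and 18.9 FPKM. All 4 groups overlapped, and the 2 lowest mice, Sirt2-/- 14 and Sirt2-/-/CE 16, belonged to different groups. Fitted log2 fold changes of Ppara were -0.36 ± 0.53 (SE) for CE against Control and -0.33 ± 0.53 for Sirt2-/- against Control, with adjusted p = 0.884 and 0.83.

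Among the 3 genes of uptake and activation, Fabp1 had the largest fold changes. It was at 5989.7, 4444, 3292, 2811 and 4736 FPKM in Control and at 3019, 2285, 1396, 3049.6 and 3062 FPKM in CE. Sirt2-/- mice were at 4125, 4221, 2718, 1185 and 748 FPKM, where the last 2 mice are those of lowest clock score, and in Sirt2-/-/CE at 5414, 3493, 3629, 5094 and 4413 FPKM. Every Sirt2-/-/CE mouse lay above every CE mouse, while the 3 other Sirt2-/- mice lay within or just below the Control range. The log2 fold change with cold was -0.72 ± 0.37 in wild-type and 0.84 ± 0.37 in Sirt2-/- mice, and the interaction was 1.56 ± 0.52 with adjusted p = 0.45. Without the 4 mice of low clock score the interaction was 1.01, and the change with cold in Sirt2-/- mice was 0.26. Cd36, the fatty acid translocase, and Acsl1, the main long-chain acyl-CoA synthetase, had group means of 10.1 to 14.4 FPKM and 194 to 273 FPKM, and neither had a p under 0.05 in the 4 pairs of groups.

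The promoter of Fabp1 holds a close match to the paired half-site that Ppara binds. RefSeq promoters (GRCm38.p6, 250 bases before to 50 after the start of transcription) were given for 31 of the 38 genes. AGGTCA, repeated directly with 1 base between, was searched on both strands with at most 2 mismatches in its 12 bases. It was matched in 5 of the 31 genes (16.1%), Fabp1, Cd36, Slc25a20, Etfa and Acot4, and in 4.4% of 27025 genes. With at most 1 mismatch it was matched in Fabp1 alone (3.23%, against 0.644% of all genes). A match of letters is a description and says nothing of binding in these livers. The stretches below are shown for the 2 of these genes with a p under 0.05 in any pair of groups. They are the 120 bases that end before the first annotated exon, on the strand of the gene, at chr6:71199707-71199826 for Fabp1 and chr12:84038259-84038378 for Acot4 (both forward strand), and capitals mark the match, which lies on the opposite strand in both.
Fabp1: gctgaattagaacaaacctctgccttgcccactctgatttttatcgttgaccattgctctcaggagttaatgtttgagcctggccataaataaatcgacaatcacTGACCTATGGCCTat
Acot4: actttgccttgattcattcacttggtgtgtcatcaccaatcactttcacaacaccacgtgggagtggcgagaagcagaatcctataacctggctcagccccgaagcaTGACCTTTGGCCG
The match begins 67 bases before the RefSeq start of Fabp1 and 13 bases before that of Acot4. The other 26 of the 31 genes, Ppara, Cpt1a and Cpt2 included, had no match in this window. Crat, Acaa2, Decr1, Hsd17b4, Acat1, Vnn1 and Angptl4 were not searched.

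In the carnitine shuttle, Cpt2 and Crat had the lowest adjusted p of the 38 genes in Sirt2-/- against Control, just above the threshold. Cpt2, which turns acylcarnitine back into acyl-CoA inside mitochondria, was at 50.1, 48.1, 39.5, 42.4 and 45.0 FPKM in Control and at 63.7, 66.7, 75.4, 86.8 and 73.0 FPKM in Sirt2-/-. Every Sirt2-/- mouse lay above every Control mouse, those of low clock score and the others alike. The CE mice, at 59.1, 55.2, 47.3, 51.9 and 48.5 FPKM, lay below the Sirt2-/- mice and, in FPKM, partly within the Control range, and the Sirt2-/-/CE mice were at 87.0, 64.8, 55.0, 64.9 and 54.5 FPKM. The log2 fold change was 0.55 ± 0.14 for Sirt2-/- against Control (1.47-fold, adjusted p = 0.0603), 0.25 ± 0.14 for Sirt2-/-/CE against CE (adjusted p = 0.887) and 0.40 ± 0.10 averaged over both treatments (adjusted p = 0.104).

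Crat, carnitine acetyltransferase, exchanges short acyl groups between CoA and carnitine. It was at 15, 9.9, 7.02, 4.36 and 6.3 FPKM in Control and at 11.3, 20.2, 21.6, 22.8 and 29.7 FPKM in Sirt2-/-. One mouse of each group fell into the range of the other, Control 1 and Sirt2-/- 11. CE mice were at 12.2, 10.2, 14, 8.08 and 11.6 FPKM and Sirt2-/-/CE mice at 20.6, 20.1, 11, 17.4 and 15.9 FPKM. For Crat the log2 fold change was 1.14 ± 0.29 for Sirt2-/- against Control (2.21-fold, adjusted p = 0.0605) and 0.83 ± 0.20 averaged over both treatments (adjusted p = 0.102). Without Sirt2-/- replicate 11 the first of these passed, with adjusted p = 0.0409, in a fit that called 128 of 15841 genes against 139 of 15616 with all mice. Cpt2 and Crat both passed the threshold against Control by DESeq2 (adjusted p = 0.013 and 0.0088), by limma on log2 FPKM (adjusted p = 0.0147 and 0.0248), with scaling by library size alone, and when only genes with at least 10 counts in every library were tested. Limma on log2 FPKM called 2.11% of all genes, scaling by library size 2.68% and the stricter filter 1.7%. Limma voom called Cpt2 (adjusted p = 0.0116) and not Crat (adjusted p = 0.104). With the clock score as a covariate the log2 fold changes were 0.54 and 1.14 with adjusted p = 0.341 and 0.357, and without the 4 mice of low score they were 0.50 and 0.89 with adjusted p = 0.419 and 0.478. Crat shares 59 of its 5388 exon bases with Dolpp1 on the other strand.

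Cpt1a, the gate of mitochondrial oxidation, split the Sirt2-/- group. It was at 119, 97.5, 114, 60.8 and 66.1 FPKM in Control, at 72.2, 54.0, 71.2, 75.1 and 92.7 FPKM in CE, at 104, 91.9, 117, 34.9 and 29.7 FPKM in Sirt2-/- and at 49.4, 85.6, 73.5, 86.7 and 53.0 FPKM in Sirt2-/-/CE. Sirt2-/- mice 14 and 15 were below every other mouse of the study, and the 3 others were within the Control range. In Sirt2-/- against Control the log2 fold change was -0.40 ± 0.32 (adjusted p = 0.611), and 0.08 without the mice of low clock score. Slc25a20, the carnitine-acylcarnitine carrier, had group means of 46.1 to 56.6 FPKM and a log2 fold change of 0.04 ± 0.17 in Sirt2-/- against Control.

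**Figure D3:**
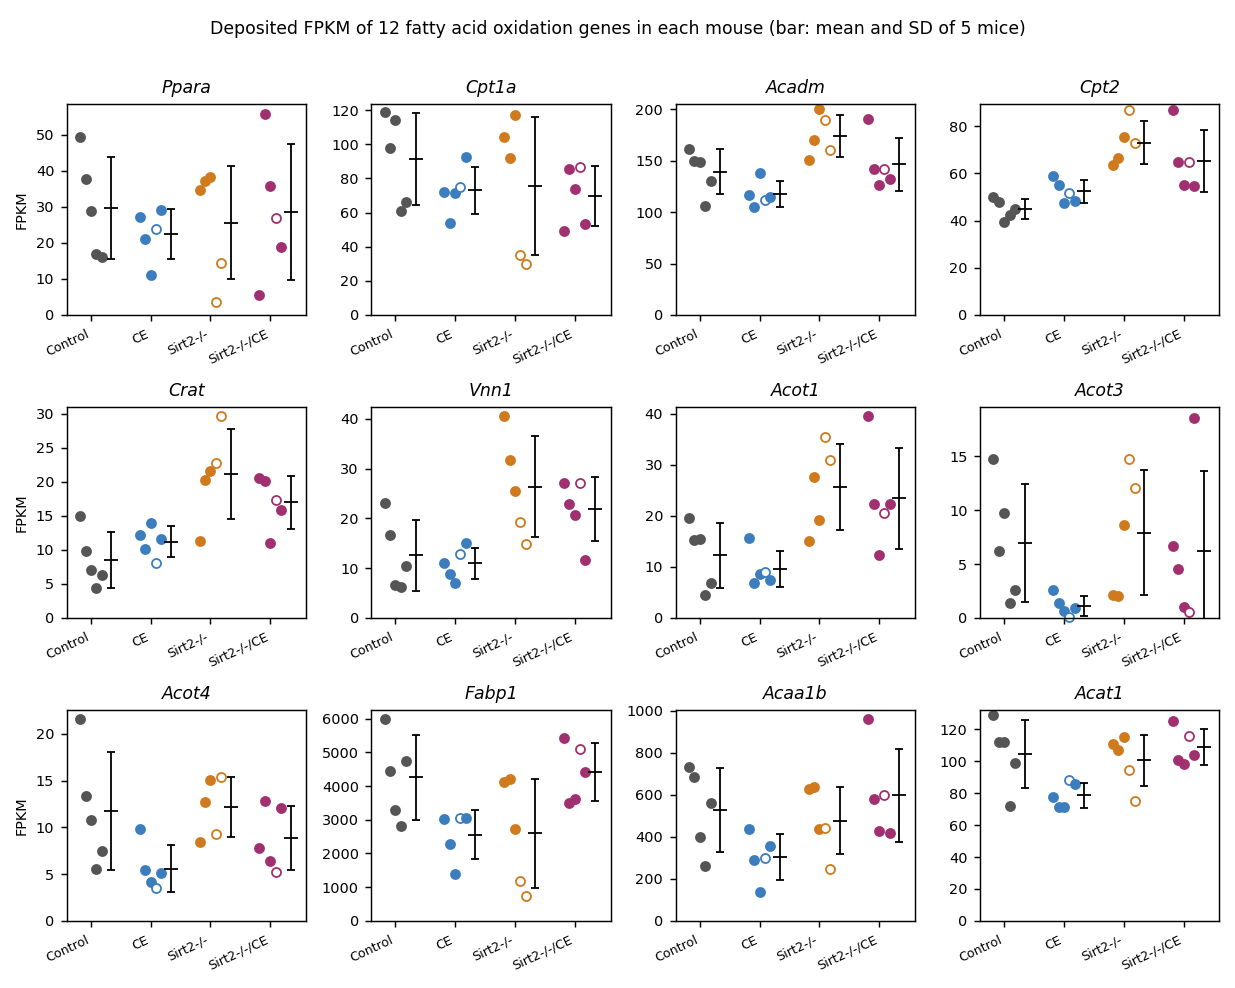
Points are the FPKM of single mice for 12 genes by group, with the mean and SD of 5 mice beside them; open points are the 4 mice with a clock score under -4, and every axis starts at 0. Cpt2 shows 5 Sirt2-/- mice above all Control mice, Fabp1 and Cpt1a show 2 open Sirt2-/- points at the bottom, and Acot3 and Acot4 are low in CE.

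The 10 genes of the mitochondrial cycle had small fold changes, mostly of one sign within a comparison with CE. Acadvl, Acadl, Acadm and Acads, the dehydrogenases for very long, long, medium and short chains, had group means of 157 to 193, 78.6 to 102, 117 to 174 and 77.1 to 95.5 FPKM. Acadm, whose loss is the commonest inherited defect of the pathway, was at 161, 150.1, 149, 106 and 130.2 FPKM in Control and at 117, 105, 138, 112 and 115 FPKM in CE. It was at 151, 169.7, 200.2, 189.9 and 160.2 FPKM in Sirt2-/- and at 191, 142, 126, 142 and 132 FPKM in Sirt2-/-/CE. The Sirt2-/- mice were the highest group and overlapped Control in 1 Control mouse and 2 Sirt2-/- mice. The log2 fold changes of Acadm were -0.22 ± 0.16 for CE and 0.18 ± 0.16 for Sirt2-/-, both against Control, with adjusted p = 0.679 and 0.65.

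Hadha and Hadhb, the 2 subunits of the trifunctional protein, had group means of 67.4 to 87.3 FPKM and 59.0 to 87.1 FPKM, lowest in CE and highest in Sirt2-/- for both. Hadh, the short-chain hydroxyacyl-CoA dehydrogenase, Acaa2, the last thiolase, and Eci1 and Decr1, which handle double bonds, had group means of 111 to 141, 473 to 600.2, 77.9 to 111 and 41.7 to 57.5 FPKM, each lowest in CE. Acaa2 was at 618, 563, 598, 447 and 548 FPKM in Control and at 502, 478, 452, 439 and 492 FPKM in CE. In Sirt2-/- it was at 519, 556, 578, 556 and 380.1 FPKM, and in Sirt2-/-/CE at 796, 546, 506, 513 and 639.7 FPKM. CE mice lay at the lower end, mouse 16 was the highest and mouse 15 the lowest of all, and the groups overlapped apart from CE and Sirt2-/-/CE, where every Sirt2-/-/CE mouse was above every CE mouse on this scale. With cold in Sirt2-/- mice its log2 fold change was 0.31 ± 0.17 (adjusted p = 0.725). In CE against Control 9 of the 10 were below 0 with a median of -0.21, and in Sirt2-/-/CE against CE 10 of 10 were above 0 with a median of 0.27. Hadhb, Eci1 and Decr1 had an unadjusted p under 0.05 in the latter, with log2 fold changes of 0.32 ± 0.15, 0.45 ± 0.21 and 0.41 ± 0.19 and adjusted p of 0.778 or more. Mouse 16 of Sirt2-/-/CE was the highest of its group for all 3, with Eci1 at 175 FPKM against 81.9 to 102 FPKM in the others. Reads of Hadhb may be shared with the processed pseudogene Gm13910, which matches it at 99.8% identity over 1428 bases and held 17.8% to 25.1% of the counts of the pair.

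The genes of electron transfer pass electrons from the dehydrogenases to ubiquinone. Etfa, Etfb and Etfdh had group means of 196 to 232, 261 to 335 and 83.5 to 106 FPKM, lowest in CE for each. Etfb was at 269, 249, 258, 248 and 305 FPKM in Control and at 261, 269, 282, 235 and 258 FPKM in CE. Sirt2-/- mice were at 261, 274, 291, 377 and 221 FPKM, and Sirt2-/-/CE mice at 559.6, 259, 245, 253 and 358 FPKM. Mouse 16 was far above all others, and the groups overlapped. With cold in Sirt2-/- mice its log2 fold change was 0.35 ± 0.22 (adjusted p = 0.79). Only the interaction of Etfa, 0.38 ± 0.17, had a p under 0.05 among these genes and comparisons, and its adjusted p was 0.564. Etfb shares 617 of its 1164 exon bases with Gm45233 on the same strand.

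Of the 8 peroxisomal genes, Acaa1b stood out. Acaa1a and Acaa1b are peroxisomal thiolases that match each other at 96.6% identity over 1428 bases, so their counts may mix, and Acaa1b held 57.2% to 85.7% of the counts of the pair. Acaa1b was at 732, 685, 397, 261 and 562 FPKM in Control, at 438, 288, 138, 297 and 357 FPKM in CE, at 625, 637, 435, 443 and 246 FPKM in Sirt2-/- and at 961, 582, 429, 598 and 417 FPKM in Sirt2-/-/CE. CE was the lowest group, and it overlapped each of the others. For Acaa1b the log2 fold change was -0.78 ± 0.33 for CE against Control and 0.93 ± 0.33 for Sirt2-/-/CE against CE, with adjusted p = 0.392 and 0.584, and the interaction was 1.20 ± 0.46 (adjusted p = 0.491). Without mouse 16 the second of these was 0.63.

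Ehhadh, the peroxisomal bifunctional enzyme, and Hsd17b4, its counterpart for branched chains, had group means of 62.8 to 108 FPKM and 134 to 171 FPKM. Eci2 and Decr2, for double bonds, were at 129 to 172 FPKM and 70.6 to 91.6 FPKM, and Pex11a, a peroxisome division factor, at 28.2 to 37.2 FPKM. Crot, which makes carnitine esters of the shortened chains, ranged most between mice of a group, from 47.2 to 345 FPKM in Sirt2-/-/CE and from 52.8 to 239 FPKM in CE. Its highest mice in those groups, CE 9 and Sirt2-/-/CE 19, were the ones of low clock score, but Sirt2-/- mice 14 and 15, also of low score, were at 151 and 123 FPKM in a group that ranged from 123 to 164 FPKM. Acaa1a was at 133, 120.5, 107, 91.1 and 130.4 FPKM in Control and at 112, 105, 95.7, 81.8 and 90.3 FPKM in CE. In Sirt2-/- it was at 139, 119.6, 134, 113 and 65.4 FPKM, and in Sirt2-/-/CE at 252, 138, 97.5, 72.1 and 121 FPKM. Its highest mouse was again mouse 16, its lowest mice were Sirt2-/- 15 and Sirt2-/-/CE 19, and the groups overlapped. None of these 6 and not Acaa1a had a p under 0.05 in a pair of groups. In Sirt2-/-/CE against CE all 8 peroxisomal genes were above 0, with a median of 0.26.

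Of the ketone body genes, Acat1, the mitochondrial acetoacetyl-CoA thiolase that also starts ketogenesis, was at 129, 112, 112, 71.7 and 98.9 FPKM in Control and at 77.4, 71.2, 71.1, 87.9 and 85.8 FPKM in CE. It was at 111, 107, 115, 94.3 and 75.3 FPKM in Sirt2-/- and at 125, 101, 98.4, 116 and 104 FPKM in Sirt2-/-/CE. CE lay below every Sirt2-/-/CE mouse and below every Control mouse but 1. The log2 fold change was -0.39 ± 0.16 for CE against Control (adjusted p = 0.371) and 0.40 ± 0.16 for Sirt2-/-/CE against CE (adjusted p = 0.678), and the interaction was 0.60 ± 0.22 (adjusted p = 0.484). Limma voom called the first of these, with -0.46 and adjusted p = 0.042. Bdh1, which makes beta-hydroxybutyrate, had group means of 68.7 to 101 FPKM, lowest in CE and highest in Sirt2-/-/CE.

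The thioesterases, which split acyl-CoA into free acid and CoA, held the largest fold changes. Acot1 to Acot4 lie in 1 cluster on chromosome 12 from 83987861 to 84060402 (GENCODE vM21, GRCm38). Acot1 of the cytosol and Acot2 of mitochondria match at 95.1% identity over 1274 bases, so reads may be assigned to either. In CE against Control 4 of 4 were below 0, with a median of -1.04, and in Sirt2-/-/CE against CE 4 of 4 were above 0, with a median of 1.26. The levels were low, with group means of 1.07 to 25.6 FPKM.

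Acot4, a peroxisomal thioesterase for dicarboxylic acids, was at 21.6, 13.3, 10.8, 5.54 and 7.47 FPKM in Control and at 9.81, 5.42, 4.11, 3.56 and 5.07 FPKM in CE. Sirt2-/- mice were at 8.45, 12.7, 15.1, 9.27 and 15.4 FPKM, and Sirt2-/-/CE mice at 7.81, 12.8, 6.35, 5.23 and 12.1 FPKM. The lower CE mice were under all Control mice, and CE 6 was within their range. Its log2 fold change with cold was -1.04 ± 0.33 in wild-type mice (adjusted p = 0.253) and -0.70 ± 0.23 averaged over both genotypes (adjusted p = 0.339). Limma voom called the first, with -1.21 and adjusted p = 0.0451.

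Acot3, also peroxisomal, was at 14.8, 6.25, 9.79, 1.39 and 2.58 FPKM in Control and at 2.55, 1.36, 0.621, 0.112 and 0.94 FPKM in CE. In Sirt2-/- it was at 2.12, 2.01, 8.61, 14.8 and 12.1 FPKM, and in Sirt2-/-/CE at 6.67, 4.51, 1.01, 0.513 and 18.6 FPKM. Mice of 1 group differed more than 10-fold in Control, CE and Sirt2-/-/CE, and the groups overlapped. Acot3 had a log2 fold change of -2.61 ± 0.90 for CE against Control and 2.46 ± 0.89 for Sirt2-/-/CE against CE, with adjusted p = 0.284 and 0.617.

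Acot1 was the thioesterase with the lowest adjusted p for genotype. It was at 19.5, 15.2, 15.4, 4.44 and 6.88 FPKM in Control and at 15.1, 27.5, 19.1, 35.4 and 31.0 FPKM in Sirt2-/-. It was at 15.6, 6.85, 8.69, 8.94 and 7.38 FPKM in CE and at 39.5, 22.3, 12.3, 20.6 and 22.3 FPKM in Sirt2-/-/CE. Of the Sirt2-/- mice 3 lay above every Control mouse, and of the Sirt2-/-/CE mice 4 lay above every CE mouse. For Acot1 the log2 fold change was 0.91 ± 0.36 for Sirt2-/- against Control, 1.26 ± 0.37 for Sirt2-/-/CE against CE and 1.08 ± 0.26 averaged over both treatments, with adjusted p = 0.232, 0.458 and 0.0916. DESeq2 called the average, with adjusted p = 0.00575. Acot2 was at 3.3, 2.09, 4.16, 0.662 and 0.918 FPKM in Control and at 1.73, 0.601, 0.946, 0.936 and 1.12 FPKM in CE. Sirt2-/- mice were at 2.27, 2.72, 2.49, 4.5 and 4.17 FPKM, and Sirt2-/-/CE mice at 4.19, 1.97, 1.51, 2.76 and 2.75 FPKM. Control 4 and 5 were as low as the CE mice, and 4 of 5 Sirt2-/-/CE mice lay above every CE mouse. Acot2 had log2 fold changes of -1.04 ± 0.42 for CE against Control and 1.26 ± 0.42 for Sirt2-/-/CE against CE (adjusted p = 0.377 and 0.559).

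Of the 3 other Ppara targets, Vnn1, pantetheinase, which frees cysteamine in CoA turnover, had an unadjusted p under 0.05 with loss of Sirt2 in both treatments. It was at 23.0, 16.7, 6.63, 6.21 and 10.5 FPKM in Control and at 40.6, 31.7, 25.5, 19.3 and 14.9 FPKM in Sirt2-/-. CE mice were at 11.1, 8.73, 7.07, 12.8 and 15 FPKM and Sirt2-/-/CE mice at 27.2, 22.9, 20.6, 27.2 and 11.6 FPKM. Mice 14 and 15, of low clock score, were the lowest of Sirt2-/-, and the 3 others lay above all Control mice. Its log2 fold change was 0.95 ± 0.34 for Sirt2-/- against Control, 0.93 ± 0.34 for Sirt2-/-/CE against CE and 0.94 ± 0.24 averaged over both treatments, with adjusted p = 0.175, 0.614 and 0.105. Without the 4 mice of low clock score the first was 1.28. Angptl4, a secreted inhibitor of lipoprotein lipase, and Ucp2, a mitochondrial carrier, had group means of 30.3 to 35.4 FPKM and 5.86 to 7.07 FPKM.

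Other genes of the pathway were counted from lists outside the 38. Of 16 further Ppara targets 2 passed in Sirt2-/- against Control, both higher. They were Cyp4a14 and Cyp4a31, fatty acid omega-hydroxylases. Cyp4a14 was at 118, 99.3, 151, 17.7 and 74.3 FPKM in Control and at 544, 701, 502, 1285 and 979 FPKM in Sirt2-/-, with no overlap. Its log2 fold change was 2.97 ± 0.51 (7.84-fold, adjusted p = 0.0199), and that of Cyp4a31 was 1.73 ± 0.36 (adjusted p = 0.0352). The 2 highest Cyp4a14 levels were in mice 14 and 15, of low clock score. Without the 4 mice of low score the log2 fold changes were 2.56 and 1.90 and neither passed (adjusted p = 0.228 for both), and with the score as a covariate they were 2.85 and 1.85 (adjusted p = 0.16 and 0.167). Averaged over both treatments Cyp4a14 rose by 2.15 ± 0.35 (adjusted p = 0.0102) and Retsat, a retinol saturase, by 0.95 ± 0.18 (adjusted p = 0.0353). Without the 4 mice these were 1.82 and 0.88 (adjusted p = 0.212 and 0.227) and with the covariate 2.07 and 1.02 (adjusted p = 0.08 and 0.0878), so the calls were lost while the fold changes stayed close in size. Among the 16 targets 11 were above 0 in Sirt2-/- against Control, with a median of 0.27, and 14 in Sirt2-/-/CE against CE, with a median of 0.42.

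Of 36 other oxidation genes 34 were tested, and 0 passed in the 4 pairs of groups, where 8, 11, 3 and 1 had a p under 0.05 in the order CE against Control, Sirt2-/- against Control, Sirt2-/-/CE against Sirt2-/- and Sirt2-/-/CE against CE. In that order these were 23.5%, 32.4%, 8.82% and 2.94% of the list, against 10.7%, 14.9%, 7.25% and 6.09% of all genes in both directions. Of the 11 in Sirt2-/- against Control 10 were lower. For the genotype average 22 of the 34 were below 0, with a median of -0.08, where 30 of the 38 genes were above 0. Of 6 other ketone body genes 0 passed in those pairs. Of 10 regulators, Rxra included, 0 passed.

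Genes of the fed state were at their lowest summed level in Sirt2-/-. The 9 genes of fatty acid synthesis summed to 733 to 2136 FPKM in Control, 342 to 1494 FPKM in CE, 215 to 511 FPKM in Sirt2-/- and 476 to 1303 FPKM in Sirt2-/-/CE, so Sirt2-/- did not overlap Control. All 9 were below 0 in Sirt2-/- against Control, with a median log2 fold change of -1.01, and 1 passed, Scd1, with -2.99 (adjusted p = 0.0311). Scd1 no longer passed without the 4 mice of low clock score (-2.58, adjusted p = 0.288) or with the score as a covariate (-2.84, adjusted p = 0.173). The 6 genes of the fasted state overlapped between all groups, at 619 to 3897 FPKM in Sirt2-/- and 1151 to 3526 FPKM in Control. The 7 markers of Kupffer cells summed to 126 to 171 FPKM in Sirt2-/-/CE and to 36.5 to 165 FPKM in CE, and all 7 had a log2 fold change above 0 between them, with 0 passing the threshold and 3 at an unadjusted p under 0.05. The 5 endothelial markers summed to 52.4 to 80.3 FPKM in Sirt2-/-/CE and to 9.26 to 47.5 FPKM in CE, with no overlap. All 5 had a log2 fold change above 0 with a median of 1.29, 5 had an unadjusted p under 0.05 and 0 passed, and all 5 also had a p under 0.05 for the genotype average, with a median of 0.81. The part of feeding state, Kupffer cells or endothelial cells in the values of the 38 genes was not tested.

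No slope of the 38 genes on the clock score within groups passed the threshold. When the score was fitted beside group, 28 of 38 slopes were above 0, with a median of 0.04 log2 units per unit of score, 9 had an unadjusted p under 0.05 (all genes, 12.5%) and 0 had an adjusted p under 0.05 (all genes, 1.17%). The 9 were Decr2, Cpt1a, Acaa1a, Acadl, Bdh1, Hadha, Hadh, Fabp1 and Acaa2, each higher in mice of higher score. Decr2 had a slope of 0.11 ± 0.03 (adjusted p = 0.0675), Cpt1a 0.13 ± 0.04 (adjusted p = 0.142) and Acaa1a 0.10 ± 0.03 (adjusted p = 0.177). Decr2 is the peroxisomal dienoyl-CoA reductase. Decr2 was at 117, 92.3, 89.9, 63.2 and 96.2 FPKM in Control and at 83.7, 69.4, 51.1, 71.8 and 77.1 FPKM in CE. In Sirt2-/- it was at 109, 90.6, 92.1, 40.6 and 35.5 FPKM, and in Sirt2-/-/CE at 91.5, 93.3, 78.0, 90.0 and 81.7 FPKM. Sirt2-/- mice 14 and 15 were below the 18 others, and all groups overlapped. Cpt2 and Crat had slopes of -0.0026 ± 0.02 and -0.0005 ± 0.04. Outside the 38 genes, Slc16a1 and Slc16a6, transporters of ketone bodies and other monocarboxylates, and Hacl1, of peroxisomal alpha-oxidation, had slopes of -0.12, -0.19 and -0.145 (adjusted p = 0.00969, 0.00805 and 0.00394). With the score as a covariate, the median over the 38 genes was -0.05 for CE against Control, 0.15 for Sirt2-/- against Control, 0.10 for Sirt2-/-/CE against Sirt2-/- and 0.32 for Sirt2-/-/CE against CE. Since Control mice all had a score above 1 and the other groups did not, the score and the groups are partly tied.

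**Figure D4:**
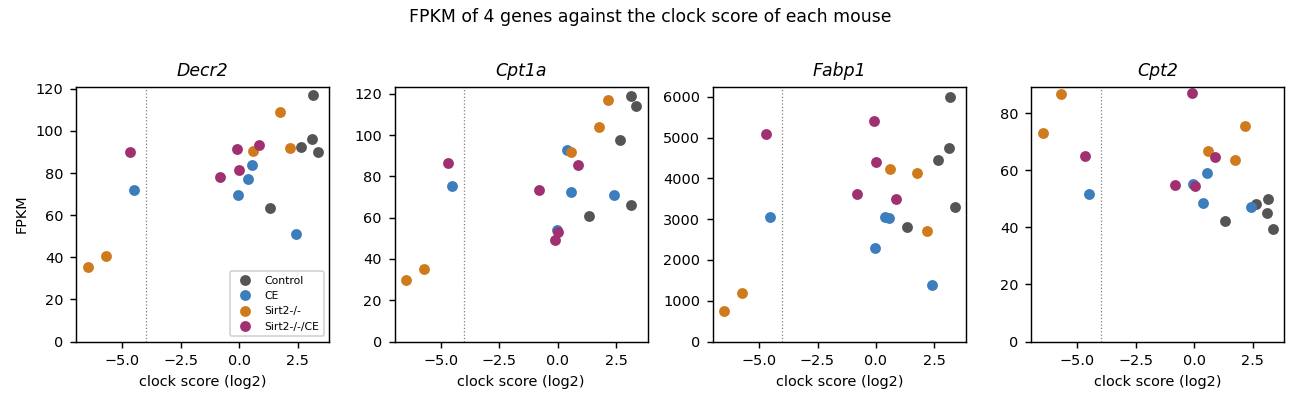
Each point is 1 mouse, coloured by group, with its clock score (log2) on the horizontal axis and its FPKM on the vertical axis, for Decr2, Cpt1a, Fabp1 and Cpt2; the dotted line is at -4. Sirt2-/- mice 14 and 15, left of the line, are the lowest of all for the first 3 genes but not for Cpt2.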

How the data were processed

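Liver RNA of 20 mice was sequenced after oligo(dT) selection. The authors deposited raw read counts per gene and FPKM values, which they computed from the same reads; the submitters' processing notes name the mm10 build, and the aligner, counter and use of strand were not given in the sources used here. Groups and mouse numbers came from the sample titles. The 38 genes and all other gene lists were chosen with earlier results of these data known. All members are named; values per mouse with a test are given for any member past the threshold, the 3 with the smallest p in each comparison, and Ppara, Cpt1a and Acadm. Others are given by group means, and genes of other lists are named where they passed. Counts were tested with edgeR 4.0.16 (R 4.3.3): filterByExpr (minimum count 10, minimum total 15), TMM, a quasi-likelihood fit over all 20 mice with group as the only term, and Benjamini-Hochberg adjustment over 15616 genes. The prior count was 2, the threshold an adjusted p of 0.05, and the SE is the log2 fold change divided by the root of F. The study's own test was a two-tailed Student test. Alternatives were scaling by library size, other filters, DESeq2 1.42.0, limma 3.58.1 (voom with sample quality weights, or log2 FPKM plus 1), the clock score as covariate, and leaving out each mouse. FPKM and TMM scale libraries differently, so ratios of FPKM means differ from the fold changes. Libraries held 35499796 to 53917339 counts, and the kept genes at least 99.94% of them. The p-values set each difference against the spread between mice within groups, estimated over all 20 mice and moderated across genes. The fit was tested on simulated data with 200 genes changed in Sirt2-/- against Control. It recovered 36% of those with a log2 fold change of size 1 and 76% with size 2, and 2.6% of its calls were false. A gene that did not pass is therefore not shown to be unchanged. Every pair of mice within a group differed by more than sampling noise. Sequence similarity was searched with BLAST+ 2.17.0.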

Additional observations from a re-analysis of the deposited data

Results flagged for a closer look

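Mice that stood apart from the other 4 of their group were looked for in 152 combinations of gene and group, and 11 were found (7.24%); chance flags about 1 in 20. They were judged on TMM-normalised log2 CPM, while the levels given are in FPKM, where some of the gaps are smaller. Mouse 16 of Sirt2-/-/CE was the highest of its group for Acadm at 191 FPKM (others 126 to 142), Hadhb at 104 FPKM (others 64.5 to 79.0) and Eci1 at 175 FPKM (others 81.9 to 102). Mouse 15 of Sirt2-/- was the lowest of its group for Hadhb at 75.2 FPKM (others 88.7 to 92.3), Acaa2 at 380.1 FPKM (others 519 to 578) and Eci1 at 67.1 FPKM (others 100.1 to 114), and its clock score was the lowest of all mice. CE 9, also of low clock score, was lowest for Acaa2 at 439 FPKM (others 452 to 502) and Acaa1a at 81.8 FPKM (others 90.3 to 112), or 9.42 (others 9.64 to 9.68) and 7.29 (others 7.70 to 7.79) as log2 CPM. CE 8 was highest for Acadm at 138 FPKM (others 105 to 117), Sirt2-/- 11 highest for Cd36 at 15.3 FPKM (others 9.92 to 11.6), and Control 4 lowest for Acadvl at 134 FPKM (others 153 to 181), or 8.34 (others 8.53 to 8.58) as log2 CPM. Effects were counted as opposite where all 5 mice of one group lay on one side of their reference group's mean log2 CPM and all 5 of the other group on the opposite side of theirs, so genes whose fitted signs differ without this, such as Acaa1b with an interaction of 1.20, are not listed. Such effects were seen for Fabp1, both with cold in the 2 genotypes and with genotype in the 2 treatments, and with cold for Acaa2, Decr2 and Acat1. The interaction terms were 1.56, 0.52, 0.66 and 0.60 (log2), and none passed in edgeR's quasi-likelihood test, with adjusted p = 0.45, 0.574, 0.642 and 0.484.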

How the results depend on the processing

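No paired analysis was possible because the mice are numbered 1 to 20 across the groups, so no number is shared. Of the 38 genes, the number passing in CE against Control was 2 with limma voom (Acat1 and Acot4). In Sirt2-/- against Control it was 2 with scaling by library size, 2 with at least 10 counts in every library, 2 with limma on FPKM, 2 with DESeq2 (each time Cpt2 and Crat), 1 with limma voom (Cpt2), and 0 to 1 when 1 mouse was left out, with Crat passing without Sirt2-/- replicate 11. For genotype averaged over both treatments it was 3 with scaling by library size, 1 with limma voom, 2 with limma on FPKM and 4 with DESeq2. Apart from those that left out a mouse, several of these fits called more genes of every kind, such as 3.46% of all genes with limma voom in CE against Control, 2.68%, 1.7%, 2.11%, 3.84% and 5.8% in Sirt2-/- against Control in the order given, and 0.717%, 1.68%, 0.288% and 1.94% for the genotype average. Of 36 log2 fold changes of named genes, 7 changed sign in some alternative. The sign of Cpt1a turned with the clock score as a covariate in CE against Control (0.11) and Sirt2-/-/CE against Sirt2-/- (0.09), with limma on FPKM in the latter (0.06), and without the mice of clock score under -4 in Sirt2-/- against Control (0.08). That of Ppara turned with the covariate in CE against Control (0.15) and Sirt2-/- against Control (0.07), without those mice in Sirt2-/- against Control (0.20) and Sirt2-/-/CE against Sirt2-/- (-0.49), and with limma voom in the latter (-0.04). Leaving out 1 mouse moved Cpt1a from -0.29 to 0.16 and Ppara from -0.32 to 0.32 in Sirt2-/-/CE against Sirt2-/-, and Ppara from -0.30 to 0.35 in Sirt2-/-/CE against CE. The cause was not tested. Leaving out the mice of low clock score was chosen after seeing the data. All 38 genes passed the count filter; the part of depth, which differed between Control and Sirt2-/-, was not tested.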
